A study of Mus musculus with 2 samples.

Results

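Genes that mast cells and basophils use to sense IgE and to fill their granules were followed through mouse bone marrow progenitors: 9 of the 31053 genes in the files, taken by symbol, namely Fcer1a, Ms4a2, Fcer1g, Cpa3, Mcpt8, Prss34, Gzmb, Hdc and Srgn. The cells were lineage-negative, Kit-positive bone marrow cells, sorted by flow cytometry and sequenced with a droplet 3' method. A single knock-in library, labelled as a GATA-1 mutation knock-in and named 2RA in the series title, was set against a single wild-type library. Strain, age, sex and the number of mice behind each library were not given in the sources used here, and no other allele or treatment was named.

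The high-affinity IgE receptor of mast cells and basophils is built from an IgE-binding alpha chain (Fcer1a), a signal-amplifying beta chain (Ms4a2) and a gamma chain (Fcer1g) that other Fc receptors share. When bound IgE is crosslinked, the receptor triggers release of granules that hold histamine, made by histidine decarboxylase (Hdc), and proteases packed on the proteoglycan serglycin (Srgn). Carboxypeptidase A3 (Cpa3) is a granule protease of mast cells and their progenitors, the proteases Mcpt8 and Prss34 mark mouse basophils, and granzyme B (Gzmb) is known from cytotoxic lymphocytes and from some mast cells. GATA factors are known regulators of the mast cell and basophil lineages.

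In GRCm38 (GENCODE M21), Fcer1g (ENSMUSG00000058715) spans chr1:171229572-171234365 and Fcer1a (ENSMUSG00000005339) chr1:173221284-173227214, both on the minus strand. Ms4a2 (ENSMUSG00000024680) spans chr19:11615523-11623719, minus strand, and Cpa3 (ENSMUSG00000001865) chr3:20215620-20242181, minus strand. Hdc (ENSMUSG00000027360) spans chr2:126593667-126619299, minus strand, and Srgn (ENSMUSG00000020077) chr10:62493833-62527451, minus strand. Prss34 (ENSMUSG00000056399) spans chr17:25298394-25300165 on the plus strand. Mcpt8 (ENSMUSG00000022157, chr14:56082166-56085273) and Gzmb (ENSMUSG00000015437, chr14:56258838-56262260) are neighbours on the minus strand, 174 kb apart with 7 protein-coding genes between them. No counted gene overlapped any of the 9.

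Because the mutated protein is a GATA factor, the promoters of the genes whose levels are described most closely are shown, each from 250 bases before to 50 bases after the RefSeq start on the gene's own strand (RefSeq, GRCm38.p6). Capitals mark every match, on either strand, to GATA with A or T just before it and A or G just after it, the form that GATA factors are known to bind. No matches overlapped in the promoters shown.
Ms4a2, chr19:11623670-11623969, minus strand: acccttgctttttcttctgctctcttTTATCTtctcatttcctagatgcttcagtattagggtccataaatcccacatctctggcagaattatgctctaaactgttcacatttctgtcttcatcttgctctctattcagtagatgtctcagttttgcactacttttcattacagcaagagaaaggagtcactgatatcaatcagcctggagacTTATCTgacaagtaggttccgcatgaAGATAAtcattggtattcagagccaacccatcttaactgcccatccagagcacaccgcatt
Cpa3, chr3:20242132-20242431, minus strand: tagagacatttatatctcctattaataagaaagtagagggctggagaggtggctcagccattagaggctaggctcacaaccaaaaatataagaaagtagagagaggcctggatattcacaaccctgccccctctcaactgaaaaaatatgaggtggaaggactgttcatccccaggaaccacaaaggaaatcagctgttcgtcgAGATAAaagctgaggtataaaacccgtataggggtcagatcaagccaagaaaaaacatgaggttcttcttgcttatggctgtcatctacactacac
Prss34, chr17:25298144-25298443, plus strand: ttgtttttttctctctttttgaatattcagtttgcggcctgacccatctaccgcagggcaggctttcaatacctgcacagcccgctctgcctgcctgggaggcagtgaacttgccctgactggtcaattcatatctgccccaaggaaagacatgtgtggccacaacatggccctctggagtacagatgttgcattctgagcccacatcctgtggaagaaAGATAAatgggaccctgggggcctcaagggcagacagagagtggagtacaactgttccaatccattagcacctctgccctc
Mcpt8, chr14:56085148-56085447, minus strand: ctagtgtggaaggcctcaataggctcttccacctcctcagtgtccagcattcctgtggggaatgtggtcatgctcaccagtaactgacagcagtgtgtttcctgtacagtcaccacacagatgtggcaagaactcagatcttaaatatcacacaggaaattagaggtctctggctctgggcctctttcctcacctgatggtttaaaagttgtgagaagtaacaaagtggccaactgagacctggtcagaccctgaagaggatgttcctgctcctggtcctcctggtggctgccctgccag
Gzmb, chr14:56262285-56262584, minus strand: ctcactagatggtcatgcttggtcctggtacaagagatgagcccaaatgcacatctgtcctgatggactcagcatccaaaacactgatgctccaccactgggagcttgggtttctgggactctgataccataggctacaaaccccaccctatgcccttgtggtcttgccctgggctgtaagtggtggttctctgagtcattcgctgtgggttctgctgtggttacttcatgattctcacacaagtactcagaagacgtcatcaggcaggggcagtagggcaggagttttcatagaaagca

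All 9 genes had an entry in the promoter table, Srgn with 2. Of the 9, 5 held a match: Ms4a2 held 3, and Fcer1a, Cpa3, Hdc and Prss34 held 1 each. In Cpa3 and Prss34 the match began 46 and 31 bases before the start, on the gene's own strand. Among all 32851 promoters of this length in the table, 29.8% held at least 1 match and 7.77% held at least 2. A match describes letters in this window and was not measured as a bound site.

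Of 6640 knock-in and 7471 wild-type barcodes, 5506 and 5490 cells were kept, with a median of 5280.5 UMIs per cell in the knock-in library and 9623.5 in the wild-type library. UMIs count captured RNA molecules, each once. The libraries shared 10 barcodes, 5 of them among kept cells. Cells were clustered and the clusters named without the 9 genes, from other markers, and a name such as erythroid-like means only that those markers were highest there. The basophil and mast-like class was 1 cluster, led by Lmo4, Scin and Ifitm1, with 112 knock-in and 146 wild-type cells. Of its 16 markers, 13 were detected in the knock-in and 12 in the wild-type cells, yet Mcpt4, Tpsb2 and Tph1, genes of mature mast cells, stood at 0 UMIs in both. The erythroid-like class had 1101 knock-in and 1237 wild-type cells but came from different clusters, 1 holding 1031 of the knock-in cells and 2 others holding 823 and 406 wild-type cells. The megakaryocyte-like class was 1 cluster of 284 knock-in and 255 wild-type cells. A further 4 clusters stayed unnamed, with Car1, a carbonic anhydrase of early red cell precursors, and Gata2, a factor of early progenitors, together 2226 knock-in and 1172 wild-type cells. They are called Car1 and Gata2 cells here.

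Of the 9 genes, 7 had their highest level in basophil and mast-like cells in both libraries. The exceptions were Fcer1g and Srgn, whose wild-type levels were highest in monocyte and neutrophil progenitor-like cells. Levels are CPM, the gene's UMIs scaled to the summed UMIs of all cells of the class, with exact 95% Poisson intervals that cover counting error only. Since the cells were clustered on genes that go along with these 9, a class against another class is given as a description and not as a test.

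**Figure D1:**
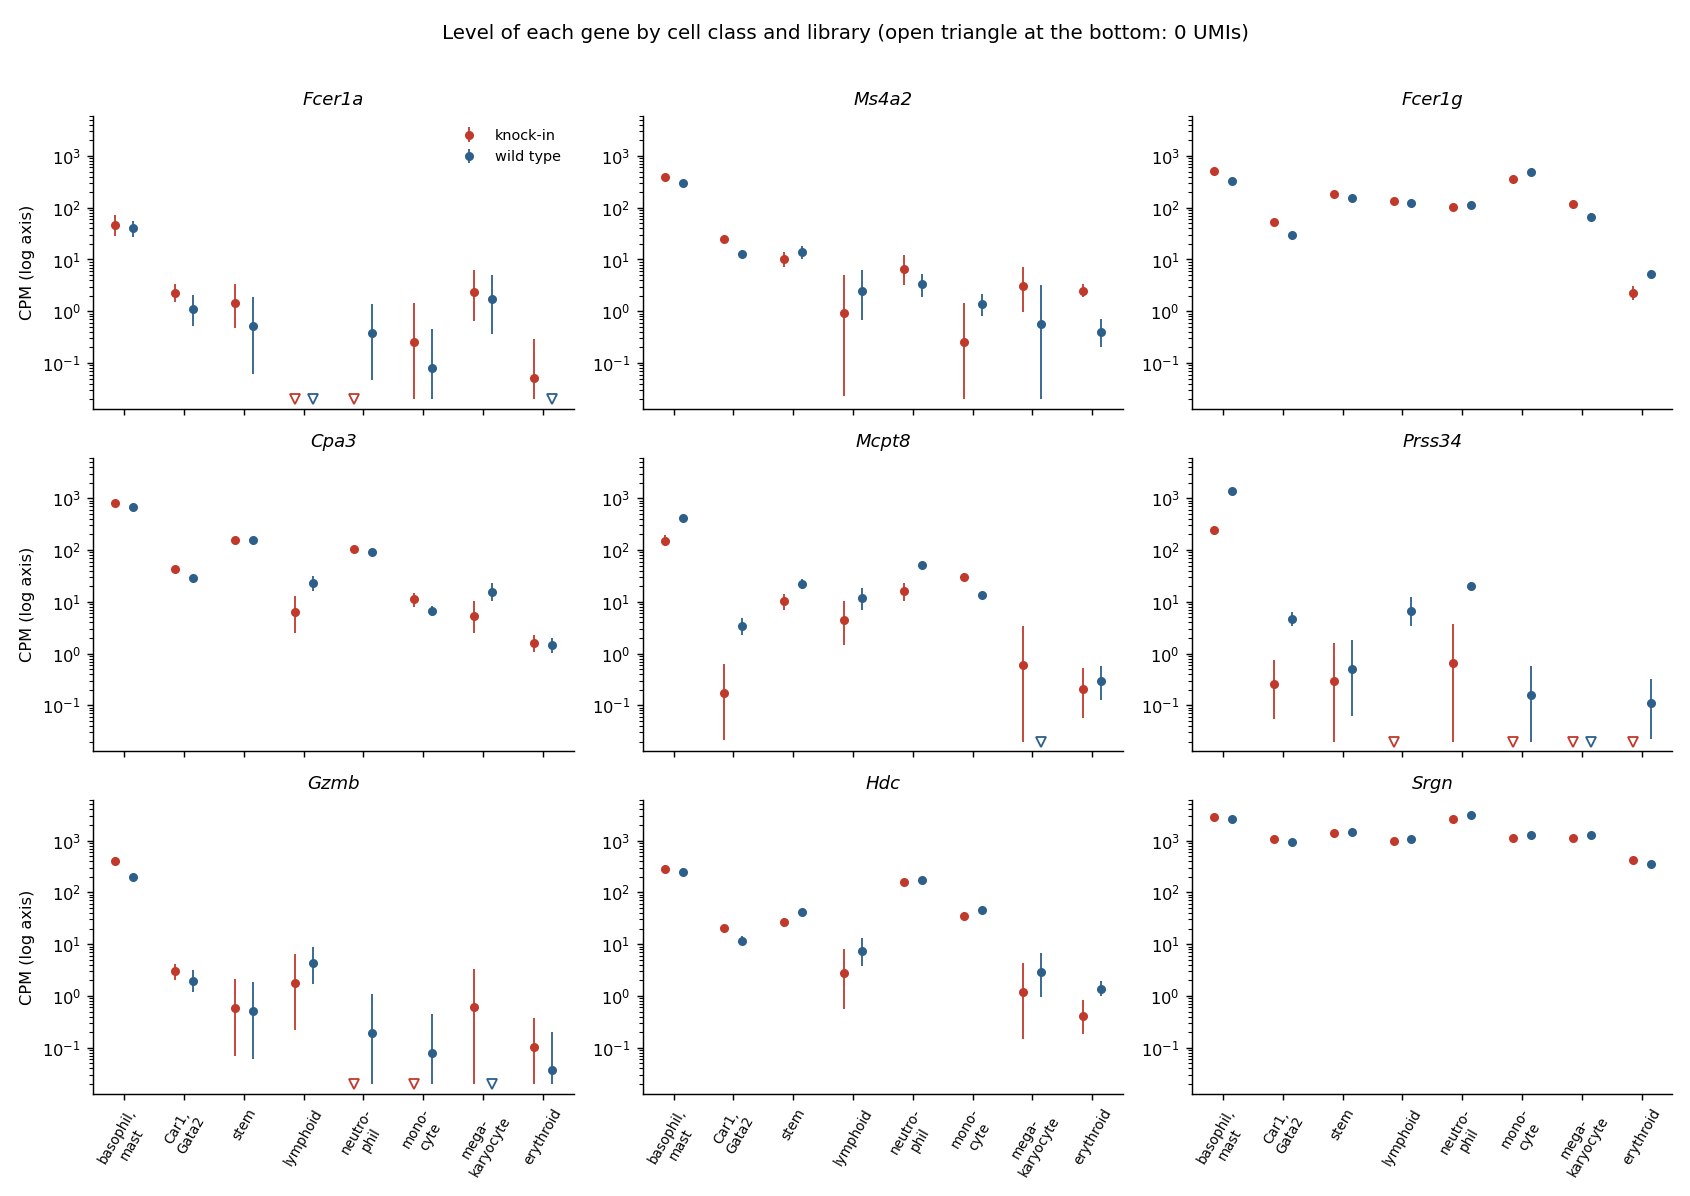
Level of each gene (CPM, log axis) in 8 classes, knock-in in red to the left of wild type in blue, with 1 library per genotype; bars are exact 95% Poisson intervals and open triangles mark 0 UMIs. Fcer1a, Ms4a2, Cpa3, Mcpt8, Prss34, Gzmb and Hdc are highest in basophil and mast-like cells, while Srgn is high in every class and Fcer1g is also high in monocyte-like cells.

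The alpha chain Fcer1a was scarce even where it was highest. It had 20 UMIs in 12 of 112 knock-in cells of the basophil and mast-like class, against 33 UMIs in 9 of 146 wild-type cells, or 46.1 (28.2 to 71.2) and 40.0 CPM (27.5 to 56.1). Of the 33 wild-type UMIs, 24 lay in 3 cells. In erythroid-like cells it had 1 UMI in the knock-in and 0 in the wild type, where 0 of 1237 cells allows a UMI in up to 0.243% of cells, a limit on detection and not on cells that express the gene, and in megakaryocyte-like cells 4 and 3 UMIs. Outside the basophil and mast-like class the intervals of classes next to each other in rank overlapped throughout. Classes further apart could differ. The erythroid-like interval ended at 0.292 CPM in the knock-in and 0.135 CPM in the wild type. That of the Car1 and Gata2 cells began at 1.49 and 0.527 CPM, and that of megakaryocyte-like cells at 0.656 and 0.356 CPM.

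The beta chain Ms4a2, which amplifies the receptor's signal, was found in most basophil and mast-like cells: 67 of 112 knock-in cells (59.8%, exact 95% interval 50.1 to 69.0) and 84 of 146 wild-type cells (57.5%, 49.1 to 65.7). Its level was 390 CPM from 169 UMIs in the knock-in and 304 CPM from 251 UMIs in the wild type. No cell dominated, since the 3 cells with most held 22 and 27 of these UMIs. Next in the knock-in came the Car1 and Gata2 cells, at 25.3 CPM. In the wild type these had 12.97 CPM and the stem-like cells 13.8 CPM, with intervals that overlapped.

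The gamma chain Fcer1g, which serves several Fc receptors of myeloid cells, was broad. In basophil and mast-like cells it had 519 CPM (453 to 591) in the knock-in and 326 CPM (288 to 367) in the wild type, from 225 and 269 UMIs. Monocyte progenitor-like cells had 366 CPM in the knock-in and 482 CPM in the wild type, so the order of the top classes differed between the libraries, with intervals that did not overlap in either. Stem-like cells followed with 184 and 156 CPM, and megakaryocyte-like cells had 120 and 66.8 CPM. Erythroid-like cells stood lowest in both libraries, with 2.25 CPM in the knock-in and 5.32 CPM in the wild type.

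Among the granule proteases, Cpa3 reached furthest back toward stem cells. Basophil and mast-like cells had 810 CPM (727 to 899) in the knock-in and 678 CPM (623 to 737) in the wild type, with the RNA found in 78 of 112 and 117 of 146 cells. Stem-like cells had 157 CPM in either library, from 538 knock-in and 612 wild-type UMIs, and neutrophil progenitor-like cells 104 and 93.1 CPM. In stem-like cells it lay in 22.5% of knock-in and 25.6% of wild-type cells. Car1 and Gata2 cells came next, with 43.1 and 28.8 CPM, and erythroid-like cells last in both libraries, with 1.57 and 1.47 CPM. Lymphoid-primed-like and megakaryocyte-like cells lay between, with overlapping intervals in each library.

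Mcpt8, a basophil granule protease, had 66 UMIs in 8 of 112 knock-in cells of the basophil and mast-like class and 340 UMIs in 27 of 146 wild-type cells. This was 152 CPM (118 to 194) in the knock-in and 412 CPM (369 to 458) in the wild type. Lower amounts were found in myeloid and stem-like cells: neutrophil progenitor-like cells had 15.9 and 51.7 CPM, monocyte progenitor-like cells 29.9 and 13.4 CPM, and stem-like cells 10.2 and 22.3 CPM. In neutrophil progenitor-like cells, the wild-type library's 266 UMIs included 114 in 3 cells. In monocyte progenitor-like cells, the knock-in library's 115 UMIs included 77 in 3 cells.

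Prss34, a basophil protease of the tryptase locus, was the most restricted. The basophil and mast-like class held 105 of the library's 110 UMIs in the knock-in (95.5%) and 1153 of 1320 in the wild type (87.3%). Its level there was 242 CPM (198 to 293) in the knock-in and 1396 CPM (1317 to 1479) in the wild type. Only 9 of 112 knock-in and 17 of 146 wild-type cells held any. Of the wild-type UMIs elsewhere, 105 were in 5 neutrophil progenitor-like cells, 103 of them in 3 cells, and 11 were in a lone lymphoid-primed-like cell.

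Gzmb, the granzyme of cytotoxic lymphocytes and some mast cells, was nearly as restricted, with 80.8% of its UMIs in the basophil and mast-like class in the knock-in and 83.2% in the wild type. It had 177 UMIs in 36 of 112 knock-in cells and 164 UMIs in 33 of 146 wild-type cells, or 408 CPM (350.3 to 473) and 199 CPM (169 to 231). In these cells the lymphocyte genes Cd3e, Ncr1, Gzma and Il2rb stood at 0 UMIs in both libraries, Klrb1c, Prf1 and Cd3g had 1 knock-in UMI each, and Trbc2 had 1 wild-type UMI. Another T cell receptor gene, Trbc1, was present at 41.5 CPM in the knock-in and 18.2 CPM in the wild type. Nkg7, a cytotoxic granule gene on the same marker list, was present at 494 and 431 CPM.

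Hdc, which makes histamine, was shared with neutrophil progenitors. Basophil and mast-like cells had 288 CPM (240.0 to 343) from 125 UMIs in the knock-in and 253 CPM (220 to 290) from 209 UMIs in the wild type, and neutrophil progenitor-like cells had 157 and 174 CPM. It was found in 58.9% of knock-in and 54.8% of wild-type basophil and mast-like cells. In neutrophil progenitor-like cells, which were sequenced more deeply, the shares were 69.1% and 77.1%.

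Srgn, the proteoglycan core of the granule, was not particular to any lineage. It had 2814 CPM in knock-in and 2558 CPM in wild-type basophil and mast-like cells, 2559 and 3117 CPM in neutrophil progenitor-like cells, and 417 and 347 CPM in erythroid-like cells, the lowest of the 8 classes in both libraries. At least 96.4% of cells held it in every class and library.

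Erythroid-like and megakaryocyte-like cells held little of 7 of the 9 genes. Set against basophil and mast-like cells of the same library, erythroid-like cells had from 0% to 0.644% of the level of Fcer1a, Ms4a2, Cpa3, Mcpt8, Prss34, Gzmb and Hdc in the knock-in and from 0% to 0.55% in the wild type. Megakaryocyte-like cells had from 0% to 5.22% in the knock-in and from 0% to 4.32% in the wild type, with Fcer1a at the top of both ranges on 4 and 3 UMIs. The sums were small: erythroid-like cells had 2 Gzmb UMIs in 1101 knock-in cells and 1 in 1237 wild-type cells, and 4 and 8 Mcpt8 UMIs. Prss34 had 0 UMIs in erythroid-like cells of the knock-in, which allows a UMI in up to 0.272% of cells, and 3 UMIs in those of the wild type. In megakaryocyte-like cells Prss34 had 0 UMIs in both, which allows a UMI in up to 1.06% of 284 knock-in and 1.18% of 255 wild-type cells, again a limit on detection. Fcer1g and Srgn were the exceptions, at 23.2% and 40.3% of the basophil and mast-like level in megakaryocyte-like cells of the knock-in and at 20.5% and 49.3% in those of the wild type.

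Shares of cells depend on depth, so they were repeated with each cell thinned to 2500 UMIs, which left 82 knock-in and 123 wild-type basophil and mast-like cells. The median depth before thinning was 3585.5 and 5351 UMIs in these cells, 9004 and 10476 in neutrophil progenitor-like cells and 17190 and 22432 in erythroid-like cells. At equal depth Ms4a2 was in 50% of knock-in and 44.7% of wild-type basophil and mast-like cells, against 1.24% and 0.842% of neutrophil progenitor-like cells, taken as a class that should lack it. Gzmb was in 17.1% and 13.8%, against 0% of both, and Prss34 in 8.54% and 4.88%, against 0.621% and 0.421%. Fcer1a was in 7.32% (2.73 to 15.2) and 1.63% (0.198 to 5.75), against 0% of both, with upper bounds of 2.27% and 0.774%, so in the wild type the intervals overlapped. The Gzmb shares of basophil and mast-like cells were 32.1% and 22.6% before thinning. Cells with Gzmb but neither Prss34 nor Mcpt8 had a median of 2323 and 2754 UMIs, so most in the knock-in were left out. The thinned Gzmb shares therefore describe the deeper cells only. Mcpt8, in 4.88% of knock-in and 7.32% of wild-type basophil and mast-like cells against 2.48% and 5.26% of neutrophil progenitor-like cells, had overlapping intervals. Those cells also held Mcpt8 as a level, and in erythroid-like cells Mcpt8 was in 0% (up to 0.337) and 0.166% (0.0202 to 0.5998), below the 1.34 to 12.02 and 3.40 to 13.4 that bound the basophil and mast-like shares. Cpa3 was in 69.5% and 66.7% against 18.01% and 11.4% of neutrophil progenitor-like cells, and Fcer1g in 74.4% and 42.3% against 0.275% and 1.58% of erythroid-like cells. Hdc was in 50% and 32.5% against 0.366% and 0.416% of erythroid-like cells, and Srgn in 100% and 99.2% against 62.1% and 56.0%, so that detection of Srgn did not set the class apart. Hdc was also in 34.8% and 34.9% of neutrophil progenitor-like cells, and Fcer1g in 56.5% and 66.3% of monocyte progenitor-like cells. In the wild type both shares exceeded those of basophil and mast-like cells, with intervals that overlapped for Hdc but not for Fcer1g. Before thinning, neutrophil progenitor-like cells held Ms4a2 in 3.64% and 2.47% of cells, Cpa3 in 26.1% and 17.9%, Mcpt8 in 13.3% and 16.9%, Prss34 in 0.606% and 1.03%, and Fcer1a and Gzmb each in 0% and 0.206%. Erythroid-like cells then held Fcer1g in 3.54% and 9.70%, Hdc in 0.727% and 2.91% and Srgn in 98.5% and 96.8%. The neutrophil progenitor-like class was a mixed background, since it also held the eosinophil granule gene Prg2, at 45.6 CPM in the knock-in and 391 CPM in the wild type.

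The RNA of several genes lay in the same cells. Of the 7 genes other than Fcer1g and Srgn, 2 or more were detected in 91 of 112 knock-in basophil and mast-like cells (81.2%) and in 110 of 146 wild-type cells (75.3%). In neutrophil progenitor-like cells this share was 29.1% and 25.2%, in stem-like cells 8.56% and 12.4%, and in Car1 and Gata2 cells 4.63% and 3.41%. No knock-in and 2 wild-type erythroid-like cells held 2 or more, and no knock-in and 1 wild-type megakaryocyte-like cell did. Thinned to equal depth, 70.7% of knock-in and 55.3% of wild-type basophil and mast-like cells still held at least 2.

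**Figure D2:**
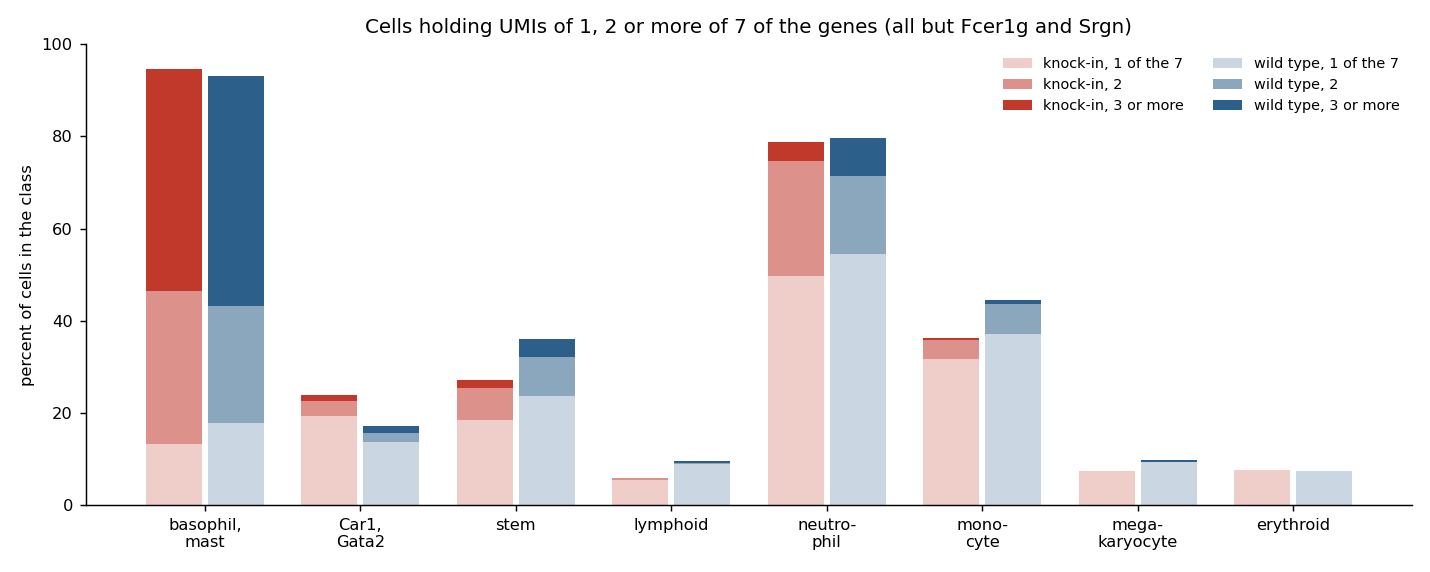
Percent of cells of each class that held UMIs of 1, 2, or 3 or more of the 7 genes other than Fcer1g and Srgn, knock-in (red) left of wild type (blue). Most basophil and mast-like cells held 2 or more, while erythroid-like and megakaryocyte-like cells seldom held more than 1.

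Within the basophil and mast-like class the proteases appeared split between cells, on small numbers. Prss34 and Mcpt8 were often found together, and Gzmb seldom with either. Of the 9 knock-in cells with Prss34, 4 also held Mcpt8 and 0 held Gzmb. Of the 17 wild-type cells with Prss34, 12 held Mcpt8 and 1 held Gzmb. The Pearson correlation of normalized Prss34 and Mcpt8 was 0.48 over 112 knock-in cells and 0.84 over 146 wild-type cells, while Prss34 and Gzmb gave -0.16 in the knock-in and -0.14 in the wild type. Gzmb lay in 36 of all 112 knock-in and 33 of all 146 wild-type cells of the class. Of the cells with Mcpt8, 1 of 8 in the knock-in and 3 of 27 in the wild type held it. With so few cells, a low overlap can also arise without a split, which was not tested. These are descriptions of cells that share a library.

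The leading cells are given as examples. Prss34, Mcpt8 and Gzmb were each absent from most cells of the class, so a few leading cells without the others cannot test the split. The 3 wild-type cells with most Prss34 held 272, 248 and 196 UMIs of it, together with 117, 41 and 39 UMIs of Mcpt8 and 0 UMIs of Gzmb. The 3 leading knock-in cells held 43, 42 and 11 UMIs of Prss34, with 9, 2 and 1 of Mcpt8 and again 0 of Gzmb, while the knock-in cell with most Mcpt8, 29 UMIs, held 0 of Prss34. The 3 leading Gzmb cells, with 29, 20 and 11 UMIs in the knock-in and 16, 13 and 13 in the wild type, held no Prss34 and no Mcpt8. An exception was a knock-in cell with 11 Mcpt8, 9 Gzmb, 8 Cma1 and 5 Kit UMIs, Cma1 being a mast cell chymase.

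**Figure D3:**
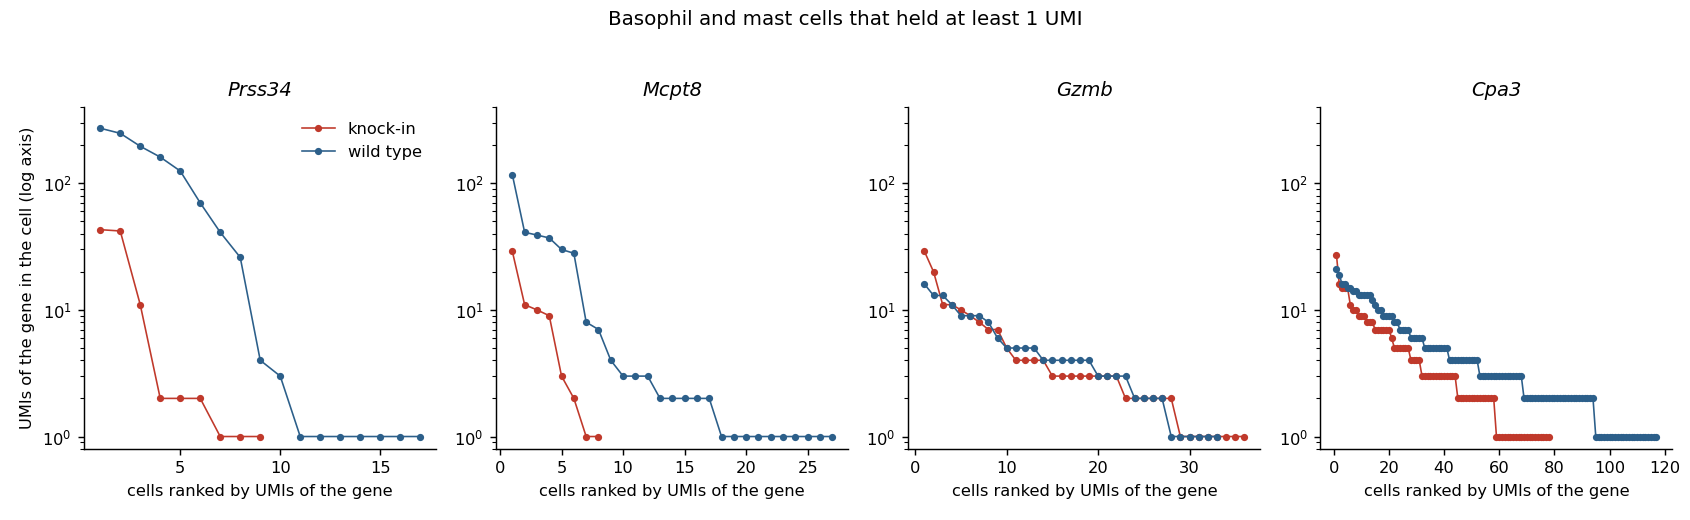
UMIs per cell (log axis) of Prss34, Mcpt8, Gzmb and Cpa3 in basophil and mast-like cells that held the gene, ranked from most to least, knock-in in red and wild type in blue. The wild-type curve for Prss34 starts at 272 UMIs and the knock-in curve at 43, while the Gzmb curves run close to each other.

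Cells with Prss34 or Mcpt8 but no Gzmb numbered 12 of 112 in the knock-in (10.7%, exact 95% interval 5.66 to 17.97) and 28 of 146 in the wild type (19.2%, 13.1 to 26.5). Cells with Gzmb but neither Prss34 nor Mcpt8 numbered 35 (31.2%, 22.8 to 40.7) and 29 (19.9%, 13.7 to 27.3). Cells with both kinds numbered 1 and 4, and the other 64 and 85 held neither. This split, and the genes set against it here, were chosen after values were seen, and the groups differ in depth, with a median of 5307.5 UMIs in knock-in and 7456.5 in wild-type Prss34 or Mcpt8 cells against 2323 and 2754 in Gzmb cells.

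Other genes of the set and known lineage genes differed across the split, as a description of cells chosen by their content. Cd200r3, a basophil surface receptor, had 5 UMIs in knock-in and 19 in wild-type Prss34 or Mcpt8 cells and 0 in Gzmb cells of either library. Fcer1a stood at 122 CPM in knock-in and 147 CPM in wild-type Prss34 or Mcpt8 cells, against 32.8 and 33.9 CPM in Gzmb cells, from 3 UMIs each. Ms4a2 stood at 641 and 516 CPM against 197 and 248 CPM. In the other direction, the stem cell factor receptor Kit stood at 91.6 and 103 CPM in Prss34 or Mcpt8 cells against 448 and 248 CPM in Gzmb cells, and Gata2 at 321 and 473 CPM against 952 and 959 CPM. Itgb7, an integrin of mast cell progenitors, stood at 107 and 43.5 CPM against 197 and 350 CPM. Cpa3 lay on both sides, at 1191 and 1060 CPM in Prss34 or Mcpt8 cells against 886 and 1061 CPM in Gzmb cells, and so did Fcer1g, at 718 and 500 CPM against 678 and 643 CPM.

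Between the genotypes, 3 of the 9 genes differed at least 2-fold in basophil and mast-like cells, against 4.08% of the 3509 genes with at least 50 UMIs there. Prss34 and Mcpt8 were lower in the knock-in, where 2.48% of genes were, and Gzmb was higher, where 1.6% were. With 1 library per genotype no test across samples was possible, and the intervals, exact conditional binomial ones, cover counting error only.

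Prss34 stood at 242 CPM in the knock-in and 1396 CPM in the wild type, a log2 ratio of -2.53 (-2.83 to -2.24). Its RNA was so concentrated that the 3 cells with most held 91.4% of the knock-in and 62.1% of the wild-type UMIs. Without those 3 cells of each library the log2 ratio was -4.65 (-5.79 to -3.71). As they held the larger share in the knock-in, leaving them out had to lower the ratio, so this value is no check of it. Counted over all kept cells, whatever their class, 3 of 5506 knock-in cells and 11 of 5490 wild-type cells held 10 or more Prss34 UMIs, which is 0.0545% (0.0112 to 0.159) and 0.2004% (0.1001 to 0.358). The minimum of 10 UMIs was chosen after values were seen. These intervals overlap, so the number of such cells alone did not separate the libraries beyond counting error.

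Mcpt8 stood at 152 CPM in the knock-in and 412 CPM in the wild type, a log2 ratio of -1.44 (-1.84 to -1.052). The 3 cells with most held 75.8% of the knock-in and 57.9% of the wild-type UMIs, and without them the log2 ratio was -2.21. Here too the larger share in the knock-in meant that leaving them out had to lower the ratio. Cells with 10 or more Mcpt8 UMIs numbered 6 in the knock-in, 3 of them basophil and mast-like, and 15 in the wild type, 6 of them in that class.

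Gzmb stood at 408 CPM in the knock-in and 199 CPM in the wild type, a log2 ratio of 1.04 (0.72 to 1.35), just past 2-fold. It was higher in the knock-in under all 9 alternatives, between 0.24 and 1.17, but reached 2-fold under 1 of them. Over all kept cells, 5 knock-in and 4 wild-type cells held 10 or more Gzmb UMIs. In cells of the class with Gzmb but neither Prss34 nor Mcpt8, Gzmb stood at 1838 CPM (1570 to 2138) in the knock-in. In the wild type it stood at 1670 CPM (1412 to 1962), with intervals that overlapped. Those cells, chosen by holding Gzmb, were 31.2% of the knock-in and 19.9% of the wild-type class. The part of this mix of cells in the ratio was not tested.

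The other 6 genes differed less than 2-fold there. Fcer1g had the largest ratio of them, 0.67 (0.41 to 0.93), and Ms4a2 stood at 0.36 (0.07 to 0.65). Cpa3 was at 0.26 (0.06 to 0.45), Fcer1a at 0.21 (-0.67 to 1.051), Hdc at 0.19 (-0.14 to 0.51) and Srgn at 0.14 (0.03 to 0.24). The median over the 9 genes was 0.21, beside 0.05 over all 3509 genes. For Cpa3, Fcer1a, Hdc, Srgn and Ms4a2 the sign turned under 1 or more other ways of choosing cells, so these 5 are given as values without a direction.

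**Figure D4:**
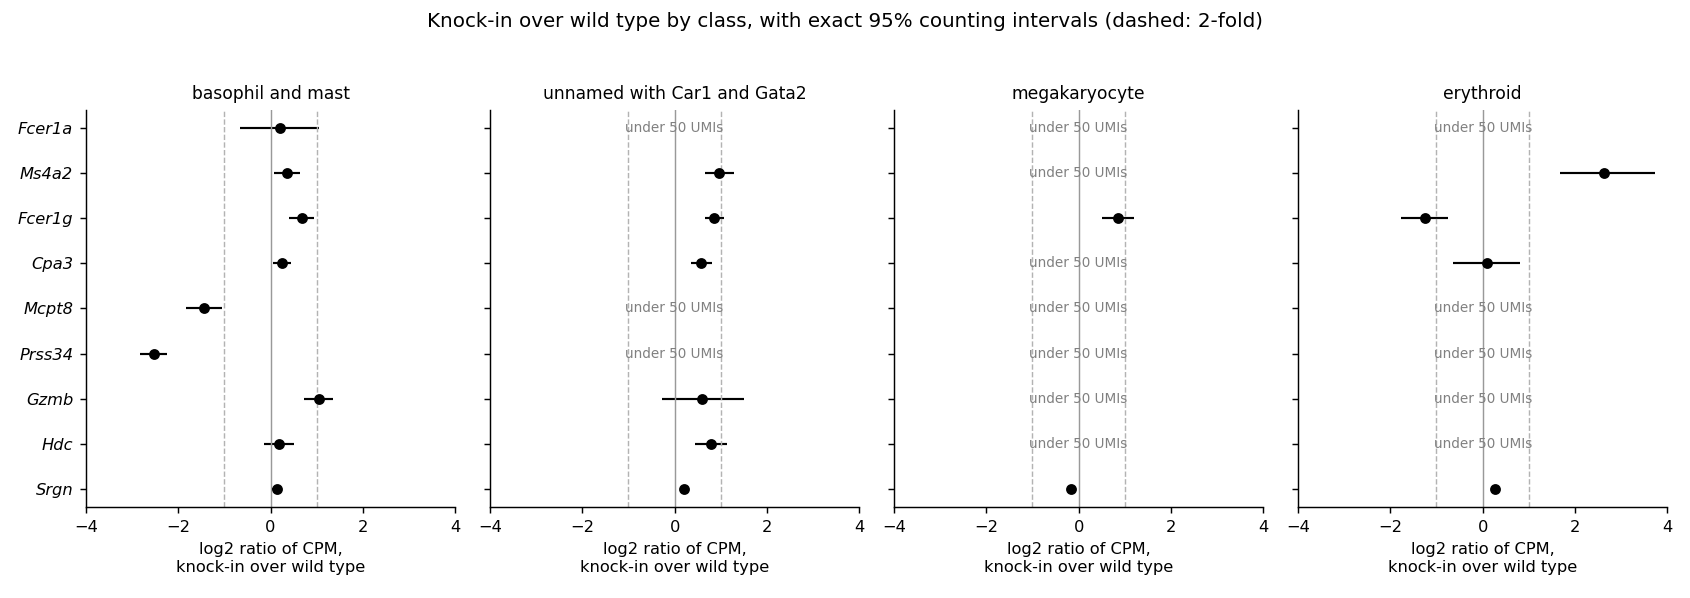
Log2 ratio of CPM, knock-in over wild type, for each gene with at least 50 UMIs over both libraries, in 4 classes; bars are exact 95% counting intervals and dashed lines mark 2-fold. In basophil and mast-like cells Prss34 (-2.53) and Mcpt8 (-1.44) lie left of the lower line and Gzmb (1.04) at the upper one.

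In the Car1 and Gata2 cells, 6 of the 9 genes had 50 UMIs, and all 6 were higher in the knock-in, as were 56.7% of all genes, none of them 2-fold, where 3.04% of 9897 genes differed 2-fold in either direction, 1.47% higher and 1.58% lower. The median of the 6 was 0.69, beside 0.04 over all genes. Without the 3 cells with most UMIs in each library, Ms4a2 was at 1.23 (0.88 to 1.59) and Gzmb at 2.67 (0.95 to 5.04), both past 2-fold. Gzmb had 34 knock-in and 18 wild-type UMIs to begin with, and at least 14 of the 18 lay in the cells left out. Fewer than 50 then remained, under the minimum used for other ratios. Ms4a2 stood at 25.3 CPM in the knock-in and 12.97 CPM in the wild type (log2 0.96, 0.65 to 1.28), Fcer1g at 53.6 and 29.5 CPM (0.86), Hdc at 20.2 and 11.8 CPM (0.78) and Cpa3 at 43.1 and 28.8 CPM (0.58). Mcpt8 and Prss34 pointed the other way on few counts, with 2 and 3 UMIs in the knock-in against 31 and 43 in the wild type, and 39 of those 43 Prss34 UMIs lay in 3 cells. The libraries drew these cells from different clusters: the largest share came from a cluster of 1060 knock-in and 24 wild-type cells in the knock-in and from a cluster of 54 and 960 in the wild type. Ms4a2 stood at 35.6 CPM in the knock-in cells of the first and at 2.07 CPM in the wild-type cells of the second. Where a cluster held many cells of both libraries, 308 knock-in and 171 wild-type, Ms4a2 stood at 36.9 CPM in the knock-in and 60.3 CPM in the wild type, Cpa3 at 53.9 and 80.5 CPM and Hdc at 20.9 and 42.6 CPM, each lower in the knock-in. How far the mix of clusters set the higher sums was not tested.

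In erythroid-like cells 4 genes had 50 UMIs, and 2 differed 2-fold, 1 higher and 1 lower, where 4.18% of 10044 genes did, 2.1% higher and 2.08% lower. Ms4a2 had 48 UMIs in 40 of 1101 knock-in cells and 11 UMIs in 11 of 1237 wild-type cells, 2.51 and 0.403 CPM, a log2 ratio of 2.64 (1.67 to 3.73). Fcer1g had 43 and 145 UMIs, 2.25 and 5.32 CPM, a log2 ratio of -1.24 (-1.77 to -0.74). Both levels are under 2% of those in basophil and mast-like cells. The Fcer1g ratio turned positive under 2 alternatives, at 0.063 with a looser cell filter and at 0.92 with the Car1 and Gata2 cells counted in, so it is given without a direction, while Ms4a2 was higher in the knock-in under all 10, between 1.64 and 3.38. The class came from different clusters in each library, and monocyte progenitor markers summed to 8.74 CPM in knock-in and 31.7 CPM in wild-type erythroid-like cells, with 12 of 12 detected in both. Their part in the Fcer1g difference was not tested. In megakaryocyte-like cells 2 genes had 50 UMIs and neither differed 2-fold, where 1.95% of 6620 genes did, 0.725% higher and 1.22% lower: Fcer1g was at a log2 ratio of 0.85 (0.51 to 1.19) and Srgn at -0.15 (-0.24 to -0.07).

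In the other classes few of the genes differed 2-fold. Among neutrophil progenitor-like cells 6 genes had 50 UMIs and 2 were 2-fold lower in the knock-in, where 2.56% of 7542 genes differed, 1.07% higher and 1.49% lower. These were Mcpt8, at 15.9 and 51.7 CPM (log2 -1.71, -2.37 to -1.10), and Prss34, on 1 knock-in UMI against 105 wild-type UMIs, of which 3 cells held 103. Of the 266 wild-type Mcpt8 UMIs, 3 cells held 114, and without the 3 cells with most in each library the log2 ratio was -1.20. This class also held the eosinophil granule gene Prg2 at 45.6 CPM in the knock-in and 391 CPM in the wild type. The part of such a mix of cells in these ratios was not tested. Among monocyte progenitor-like cells 5 had 50 UMIs and 1, Mcpt8, was 2-fold higher (1.16, 0.80 to 1.51), where 2.64% of 9304 genes differed, 0.699% higher and 1.95% lower. That value rested on 3 knock-in cells with 77 of 115 UMIs, and without the 3 cells with most in each library it was -0.10 (-0.66 to 0.43). Among stem-like cells 6 had 50 UMIs and 1, Mcpt8, was 2-fold lower (-1.13, -1.74 to -0.55), where 1.8% of 8792 genes differed, 0.614% higher and 1.18% lower. Among lymphoid-primed-like cells 2 had 50 UMIs, Fcer1g and Srgn, and neither differed 2-fold, where 1.87% of 5982 genes did, 0.535% higher and 1.34% lower.

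The share of basophil and mast-like cells was 2.03% of knock-in cells (1.68 to 2.44) and 2.66% of wild-type cells (2.25 to 3.12). This difference turned round under 3 alternatives, so no direction is given. Gata1 itself stood at 85.3 CPM from 37 UMIs in knock-in and 86.0 CPM from 71 UMIs in wild-type basophil and mast-like cells, a log2 ratio of -0.01 (-0.63 to 0.58). As the labels do not say which part of the gene was altered, this level does not check them.

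Genes of IgE receptor signalling and of mast cell and basophil biology were read in the same cells from lists. Their ratios were not recomputed under the alternatives, so the directions hold for the main choice of cells only. Of 18 genes of IgE receptor signalling, 11 had 50 UMIs, of which 10 were higher and 1 lower in the knock-in, with a median log2 ratio of 0.48. Of all 3509 genes in this class 54.3% were higher, with a median of 0.05. The kinase Syk, which the gamma chain recruits, stood at 83.0 and 49.7 CPM (log2 0.74, 0.05 to 1.42), and the calcium sensor Stim1 at 71.5 and 38.8 CPM (0.88, 0.12 to 1.64). Lyn, the kinase that first phosphorylates the receptor, was the exception at 29.98 and 60.6 CPM (-1.01, -2.02 to -0.11). Rac2, the most abundant on the list, stood at 519 and 443 CPM (0.23, -0.02 to 0.47).

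Of 14 surface receptors, 7 had 50 UMIs and all 7 were higher in the knock-in, beside 54.3% of all genes, with a median of 0.50. The widest were the shared beta chain of the interleukin receptors of these cells, Csf2rb, at 226 and 59.3 CPM (log2 1.93, 1.42 to 2.45), and its close copy Csf2rb2, at 150 and 10.9 CPM (3.78, 2.77 to 4.97). Reads of such near-identical copies can be split between them, so each value is uncertain. The low-affinity IgG receptor Fcgr3, which signals through Fcer1g, stood at 209.9 and 105 CPM (0.99, 0.55 to 1.43), and Kit at 231 and 190.1 CPM (0.28, -0.10 to 0.65).

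Of 22 other granule and mediator genes, 6 had 50 UMIs, 3 of them higher and 3 lower, beside the same 54.3%. Csf1, a growth factor of macrophages, stood at 73.8 and 29.1 CPM (log2 1.34), Alox5ap, needed for leukotriene synthesis, at 209.9 and 327 CPM (-0.64, -0.999 to -0.29), and the monoamine transporter Slc18a2, which loads histamine into granules, at 233 and 155.0 CPM (0.59, 0.20 to 0.98). Of the 22, 8 were at 0 in both libraries, among them Mcpt4, Tpsb2, Tpsab1 and Gzma. Of 17 regulators, 13 had 50 UMIs, 9 higher and 4 lower beside 54.3% of all genes higher, led by Lmo4 at 2461 and 1131 CPM (1.12, 0.99 to 1.25) and Ikzf2 at 487 and 315 CPM (0.63, 0.36 to 0.90). Eosinophil granule genes were near 0, with Epx and Prg3 at 0 UMIs in both libraries and Prg2 at 1 UMI in each. Macrophage markers summed to 16.1 and 13.3 CPM.

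The neighbours of the proteases on the chromosome were mostly silent in basophil and mast-like cells. Of 15 other protein-coding genes within 150 kb of the Mcpt8 to Gzmb interval, a cluster of mast cell proteases and granzymes, 11 had 0 UMIs in both libraries. Ctsg, a neutrophil and mast cell protease between Mcpt8 and Gzmb, had 236 UMIs in the knock-in and 504 in the wild type, and Cma1 had 9 and 17. Of 15 other genes within 150 kb of Prss34, 7 had 0 UMIs in both, among them the mast cell tryptases Tpsb2, Tpsab1 and Tpsg1. Beside Ms4a2, its family member Ms4a3, known from granulocyte and monocyte progenitors, had 71 and 154.

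Genes most alike in pattern were ranked for Ms4a2, Cpa3 and Prss34 by Pearson correlation of log2(CPM + 1) over 28 profiles of cluster and library, which share clusters and depth, so that no p is given. For Ms4a2 the first were Cpne2 (0.85), Stx3 (0.83), 4930519L02Rik (0.83), Ikzf2 (0.81) and Gm17590 (0.81). For Cpa3 they were Lpcat2 (0.87), 2310001H17Rik (0.87), Ikzf2 (0.84), Gm11697 (0.83) and Plcb2 (0.81). For Prss34 they were Gm11697 (0.86), Trbc1 (0.85), Usp2 (0.74), Kcne3 (0.73) and Far2 (0.71). Among the 9 genes themselves, the profiles of Fcer1a and Gzmb gave 0.86 and those of Hdc and Srgn 0.84, and the lowest was 0.31 for Fcer1g and Gzmb.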

How the data were processed

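Lineage-negative, Kit-positive bone marrow cells of knock-in and wild-type mice were captured with a droplet 3' kit, 1 library per genotype, and the values are UMI counts per gene and cell as deposited, made with Cell Ranger 3.1.0 per the file headers, on mm10 per the submitters' processing notes. Whether these 2 libraries pool several mice was not given in the sources used here. A barcode was kept when it showed 500 or more genes, 1000 or more UMIs and no more than 10% of UMIs from mitochondrial genes. Of the 5781 knock-in and 5635 wild-type barcodes left, 275 and 145 were removed as doublets with Scrublet; its own threshold marked 0.0692% of the knock-in barcodes, under the 0.5% minimum, so the top 5% of scores were removed there. The kept cells held 43684066 and 64283716 UMIs.

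Cells were clustered with scanpy 1.11.5 and leidenalg 0.10.2 (2000 variable genes, 30 components, 15 neighbours, resolution 1), leaving out the 9 genes and related mast cell and basophil lists. The rule for naming clusters was set after the clusters had been seen, and the genes described and all lists were chosen with earlier results of these data known. Counts were summed per class and library. Intervals are exact at 95% (Poisson, Clopper-Pearson, conditional binomial; SciPy 1.17.1), and PCR copies are collapsed by UMI, so they cover counting error only. Ratios are given for genes with 50 UMIs over both libraries, and those past 2-fold were counted. No test across samples was possible. A share at 0 is given the limit that 3 counts allow, except after thinning, where the upper end of the exact interval is given. List genes named in the text are those with most UMIs or with the interval farthest from 0. The interval and ratio steps were tested on simulated sums drawn with the Poisson counting error that the intervals assume. This checks the calculation and not the spread between cells or libraries. The alternatives changed the cell filter, doublets, resolution, clustering genes, cell placement, averaging, minimum count and fold.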

Additional observations from a re-analysis of the deposited data

Results flagged for a closer look

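The knock-in over wild-type log2 ratio of Fcer1g, the shared gamma chain, had opposite signs between classes. It was 0.67 in basophil and mast-like cells, 0.86 in Car1 and Gata2 cells and 0.85 in megakaryocyte-like cells, against -1.24 in erythroid-like cells, and it also lay below 0 in monocyte and neutrophil progenitor-like cells, at -0.40 and -0.16. The erythroid value turned positive under 2 of 10 alternatives, so its sign is not settled. The ratio of Srgn was 0.14 in basophil and mast-like cells, 0.20 in Car1 and Gata2 cells and 0.26 in erythroid-like cells, against -0.15 in megakaryocyte-like cells. The value in basophil and mast-like cells had the other sign under 5 of 9 alternatives. With 1 library per genotype these differences between classes were not tested.

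Barcodes left out by the cell filters and doublet removal, 1134 in the knock-in and 1981 in the wild type, also held RNA of these genes. Fcer1a stood at 2.08 CPM there in the knock-in, from 9 UMIs, against 0 UMIs in the wild type. Ms4a2 stood at 15.04 CPM in the knock-in, from 65 UMIs, against 2.40 CPM from 15 UMIs in the wild type. Gzmb stood at 8.10 CPM in the knock-in, from 35 UMIs, against 0.479 CPM from 3 UMIs in the wild type. Others were lower in the knock-in, with Hdc at 17.1 against 30.8 CPM, Fcer1g at 97.0 against 129 CPM and Mcpt8 at 5.32 against 9.27 CPM.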

How the results depend on the processing

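Prss34 and Mcpt8 were lower and Gzmb higher in knock-in basophil and mast-like cells under all 9 alternatives, with log2 ratios of -4.65 to -2.25, -2.38 to -1.11 and 0.24 to 1.17. The alternative without the 3 cells with most UMIs, which gave -4.65, had to lower the Prss34 and Mcpt8 ratios. Those cells held a larger share of the UMIs in the knock-in. The count of genes past 2-fold there, 3, lay between 2 and 4. The log2 ratio of the share of basophil and mast-like cells, -0.39, turned to 0.081 with a stricter cell filter, 0.056 with doublets kept and 0.20 with the 9 genes used in clustering and naming. In erythroid-like cells the count of 2 became 0 with the stricter filter and 1 at resolution 0.6, at resolution 1.6 and without the 3 cells with most UMIs. In megakaryocyte-like cells the count of 0 became 1 with the stricter filter, the looser filter, resolution 0.6, the 9 genes in clustering and naming, placement of the knock-in cells on clusters of the wild type, a minimum of 10 UMIs and a 1.5-fold limit. The Fcer1g ratio in erythroid-like cells turned to 0.063 with the looser filter and to 0.92 with the Car1 and Gata2 clusters counted as erythroid, an alternative chosen after seeing the data. The ratios in the remaining classes were also recomputed without the 3 cells with most UMIs, likewise chosen after seeing the data, and Mcpt8 in monocyte progenitor-like cells turned to -0.10. Prss34 in neutrophil progenitor-like cells then had too few UMIs for a ratio. The cause was not tested in any of these cases. No paired analysis was possible because each genotype has 1 library. The shallower knock-in library and the few cells that hold most protease RNA limit precision, and no value has a replicate.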
